A study of Mus musculus with 11 samples.

Results

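The cadherin superfamily was followed through the early mandibular arch of the mouse: classical cadherins, protocadherins and the giant cadherins of planar polarity. Members were taken by symbol from the array annotation: numbered Cdh and Pcdh genes other than Cdh1 and Cdh5, Fat1 to Fat4, Dchs1 and Celsr1 to Celsr3. This gave 39 of the 18194 genes that had a probe set with a single symbol, and 79 probe sets. Where a gene had several probe sets, the one of greatest mean signal stood for it. Dchs2, Cdh12 and Cdh24 had no such probe set and were not analysed here.

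RNA from pieces of the mandibular arch of ICR embryos was hybridised to 11 Affymetrix arrays, and the series asked how gene expression differed between the medial and the lateral part of the arch. All embryos were of the ICR strain, with no treatment or altered allele in the labels. Medial tissue was measured at E9.7 (1 array), E10.5 (3 arrays), E11.5 (2 arrays) and E14.5 (1 array), and lateral tissue at E9.7 (1 array) and E10.5 (3 arrays). Each sample pooled 40 embryos, and nothing in the labels says that arrays of a group came from separate pools. P-values therefore cover only how far these arrays scatter, and that scatter may be technical. Precision is limited by how few arrays there are. At E14.5 the label gives tongue and the anterior part of the medial region, so a difference of stage and one of dissection cannot be told apart. The pieces held epithelium, mesenchyme, muscle precursors, vessels and nerves together, and in such bulk samples fewer cells of a type and less RNA per cell cannot be told apart.

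Cadherins are calcium-dependent adhesion molecules whose extracellular repeats bind cadherins on a neighbouring cell. Classical cadherins join cells through catenins to the actin cytoskeleton, and cells that carry different classical cadherins sort from each other. Protocadherins of the delta class adhere more weakly and take part in cell sorting and migration, while Fat, Dachsous and Celsr proteins orient cells within a sheet and, for Fat and Dachsous, feed into growth control. Cdh11 is known for loose mesenchyme such as that of the arch, Cdh3 (P-cadherin) for surface epithelium and Cdh15 (M-cadherin) for muscle precursors, which later build the tongue.

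Promoters of 4 members are shown: the delta protocadherins Pcdh8, Pcdh10 and Pcdh19, whose signal was smaller on every medial than on every lateral array at E10.5, and Cdh15, which had the largest difference between E11.5 and E10.5 among tested members. They are RefSeq sequences of build GRCm38.p6, from 250 bases before to 50 bases after the start of transcription, written along the gene's strand. Pcdh8 lies at chr14:79771263-79771562 on the minus strand, Pcdh10 at chr3:45378148-45378447 on the plus strand, Pcdh19 at chrX:133688944-133689243 on the minus strand and Cdh15 at chr8:122848124-122848423 on the plus strand. Capitals mark GGGCGG, then the letters CCAAT and the letters TATAAA, read on either strand. On the opposite strand GGGCGG reads CCGCCC, while the letters CCAAT read ATTGG.
Pcdh8: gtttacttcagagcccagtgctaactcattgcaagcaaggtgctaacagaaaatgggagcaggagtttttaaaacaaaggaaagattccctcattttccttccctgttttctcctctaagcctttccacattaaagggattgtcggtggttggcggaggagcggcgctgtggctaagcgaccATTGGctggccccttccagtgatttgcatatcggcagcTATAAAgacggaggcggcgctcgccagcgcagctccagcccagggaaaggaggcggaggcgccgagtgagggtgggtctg
Pcdh10: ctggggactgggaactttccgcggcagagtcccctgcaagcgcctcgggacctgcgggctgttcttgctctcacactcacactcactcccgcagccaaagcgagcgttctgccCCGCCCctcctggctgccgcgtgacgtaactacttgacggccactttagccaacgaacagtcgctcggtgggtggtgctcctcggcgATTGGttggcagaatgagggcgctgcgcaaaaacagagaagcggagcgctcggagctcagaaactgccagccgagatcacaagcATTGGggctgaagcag
Pcdh19: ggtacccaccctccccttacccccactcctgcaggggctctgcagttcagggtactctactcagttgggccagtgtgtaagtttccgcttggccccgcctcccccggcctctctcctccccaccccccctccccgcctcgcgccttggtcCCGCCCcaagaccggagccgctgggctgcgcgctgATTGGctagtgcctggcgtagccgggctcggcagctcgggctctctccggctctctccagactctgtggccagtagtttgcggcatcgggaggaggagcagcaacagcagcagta
Cdh15: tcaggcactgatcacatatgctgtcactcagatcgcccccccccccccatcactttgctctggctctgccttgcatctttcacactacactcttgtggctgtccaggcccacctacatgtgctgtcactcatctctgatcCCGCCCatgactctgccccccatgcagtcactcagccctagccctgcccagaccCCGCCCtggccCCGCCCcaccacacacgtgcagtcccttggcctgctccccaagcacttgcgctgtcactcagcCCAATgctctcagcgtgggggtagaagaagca

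The Pcdh8 promoter held TATAAA from position -30 relative to the start and CCAAT on the opposite strand from position -68. The Pcdh10 promoter held 1 GGGCGG and 2 CCAAT motifs, the Pcdh19 promoter 1 of each, and the Cdh15 promoter 3 GGGCGG motifs and 1 CCAAT. Among all 32851 promoters of this length, 35.7% held GGGCGG, 37.4% held CCAAT, 13.6% held TATAAA and 12.8% held both GGGCGG and CCAAT. None of the 4 held the letters TAATTA (5.29% of all promoters), the letters TAATTG (8%) or the letters CAGCTG (16.3%) on either strand. Cdh15 held CATATG, found in 3.91% of all promoters. A match of letters is a description and marks no binding site, and a missing match says only that the letters are not in this window. Promoters were given for 26 of the 39 members.

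Values are log2 signals after quantile normalization, which puts every array on the same distribution. The array files carry no detection calls, so the 50th percentile of all values, 4.86, was used as a working level: signals near or under it are dim, and differences that rest on them are uncertain. Signals of different genes come from different probes and are not compared with each other. The median deposited signal was between 5.20 and 5.73 on 9 arrays but 2.37 for replicate 1 of medial E10.5 and 2.47 for replicate 1 of medial E11.5. The arrays were also cut into 4 groups, a number that was chosen, by the signals of spiked-in control probes. Values within such a group are given below where it held both tissues or stages. Between regions they rest on 1 medial against 1 lateral array and on 1 medial against 2 lateral arrays. Between stages they rest on 1 array of each stage, and 1 of these groups held only the 2 arrays of low deposited signal. Markers of arch mesenchyme were present: all 10 reached 4.86 on at least 1 array of each E9.7 and E10.5 group.

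Of the 39 members, 17 lay at or above 4.86 on all 11 arrays and 12 lay under it on all of them. All 4 type I classical cadherins (Cdh2, Cdh3, Cdh4 and Cdh15) and all 5 Fat and Dachsous genes had enough signal to be tested, as did 6 of 10 delta protocadherins and 2 of 3 Celsr genes. Only 2 of the 10 type II classical cadherins did, Cdh6 and Cdh11. Cdh7, Cdh8, Cdh9 and Cdh18 stayed at or below 3.38 on every array, and Cdh20 and Cdh22 at or below 4.82. Cdh17, Cdh23, Celsr3, Pcdh1, Pcdh11x and Pcdh15 were the other members under the level throughout. Cdh10, Cdh16, Cdh19, Pcdh8 and Pcdh20 reached it on some arrays but not on enough to be tested, which leaves 22 members tested and 17 not. For 24 members the lowest and the highest array were at least 2-fold apart, and the median range over the arrays was 1.51 log2 units for members against 0.87 for all genes.

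**Figure D1:**
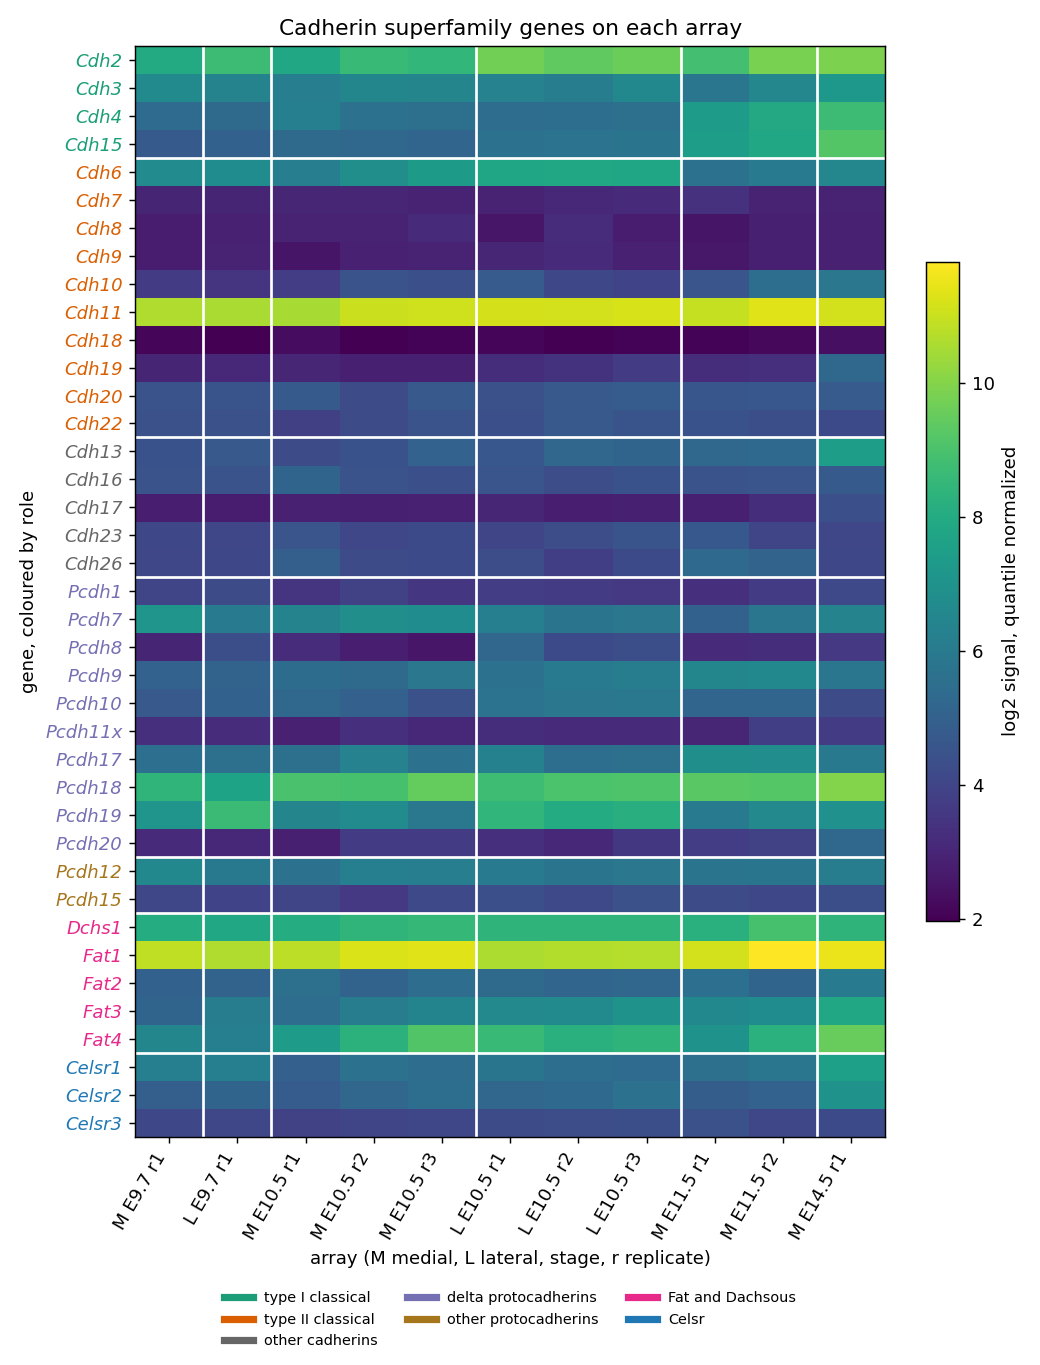
Log2 signal (colour, quantile normalized) of the 39 members (rows, names coloured by role) on each of the 11 arrays (columns; M medial, L lateral, r replicate). Colours should be read along a row: Cdh15 and Cdh4 brighten from E10.5 to E14.5, Pcdh19 is brighter in lateral columns, and 12 rows stay under 4.86 on every array.

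The comparison of medial with lateral tissue at E10.5 asked which of these adhesion molecules differed along the arch. The test was passed by 3 members, all lower in medial tissue: the delta protocadherins Pcdh19 and Pcdh10 and the classical cadherin Cdh2. No member passed as higher in medial tissue. The test was limma on all 11968 genes with enough signal (at least 2 of the 8 arrays of the replicated groups at 4.86 or above), and a gene was called at a Benjamini-Hochberg adjusted p under 0.05.

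Pcdh19, a delta protocadherin that can pair with N-cadherin, had the largest difference. Its log2 signal was 6.47, 6.74 and 5.92 on the medial arrays and 8.47, 8.02 and 8.18 on the lateral arrays. Every lateral array was more than 1 unit above every medial array. The medial mean was 6.38 ± 0.42 (SD, n = 3) and the lateral mean 8.22 ± 0.23 (SD, n = 3), a log2 difference of -1.85 ± 0.24 (SE; limma adjusted p = 0.00233), or 3.60-fold. Within the groups of arrays alike in spiked-in controls the difference was -1.73 and -2.18. All 3 probe sets of Pcdh19 had lower medial means, with log2 differences of -1.85, -1.62 and -1.67 (limma adjusted p = 0.00418, 0.00435 and 0.00237 over 24339 probe sets).

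Pcdh10, a delta protocadherin that links to actin remodelling, differed by -0.94 ± 0.20 (SE; limma adjusted p = 0.0339) with its representative probe set. That probe set gave 5.30, 4.99 and 4.40 on the medial arrays and 5.71, 5.89 and 5.92 on the lateral arrays, with no overlap, although the medial values lay near the working level. The call was lost where each probe set was fitted on its own (limma adjusted p = 0.0542 over probe sets). A second of its 6 probe sets gave 4.24, 4.09 and 3.92 in medial and 6.46, 6.5 and 6.21 in lateral tissue, a log2 difference of -2.31 (limma adjusted p = 0.000145 over probe sets). The third and the fourth differed by -2.67 and -1.95 (limma adjusted p = 0.00239 and 0.00133 over probe sets). For these 3 probe sets the medial means of 4.08, 3.38 and 3.31 lay under 4.86, so they entered the test through the lateral arrays and had to differ. The remaining pair were dim on all E10.5 arrays, with log2 differences of 0.08 and -0.44.

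Cdh2 (N-cadherin), the main classical cadherin of mesenchyme and nervous tissue, gave 7.85, 8.63 and 8.50 on the medial arrays and 9.73, 9.43 and 9.62 on the lateral arrays. All lateral arrays were above all medial arrays. The means were 8.32 ± 0.42 and 9.59 ± 0.15 (SD, n = 3 each), a log2 difference of -1.27 ± 0.27 (SE; limma adjusted p = 0.0288) or 2.41-fold. It was -1.10 and -1.03 within the groups alike in spiked-in controls. The second probe set differed by -0.73 without passing (limma adjusted p = 0.0800 over probe sets).

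**Figure D2:**
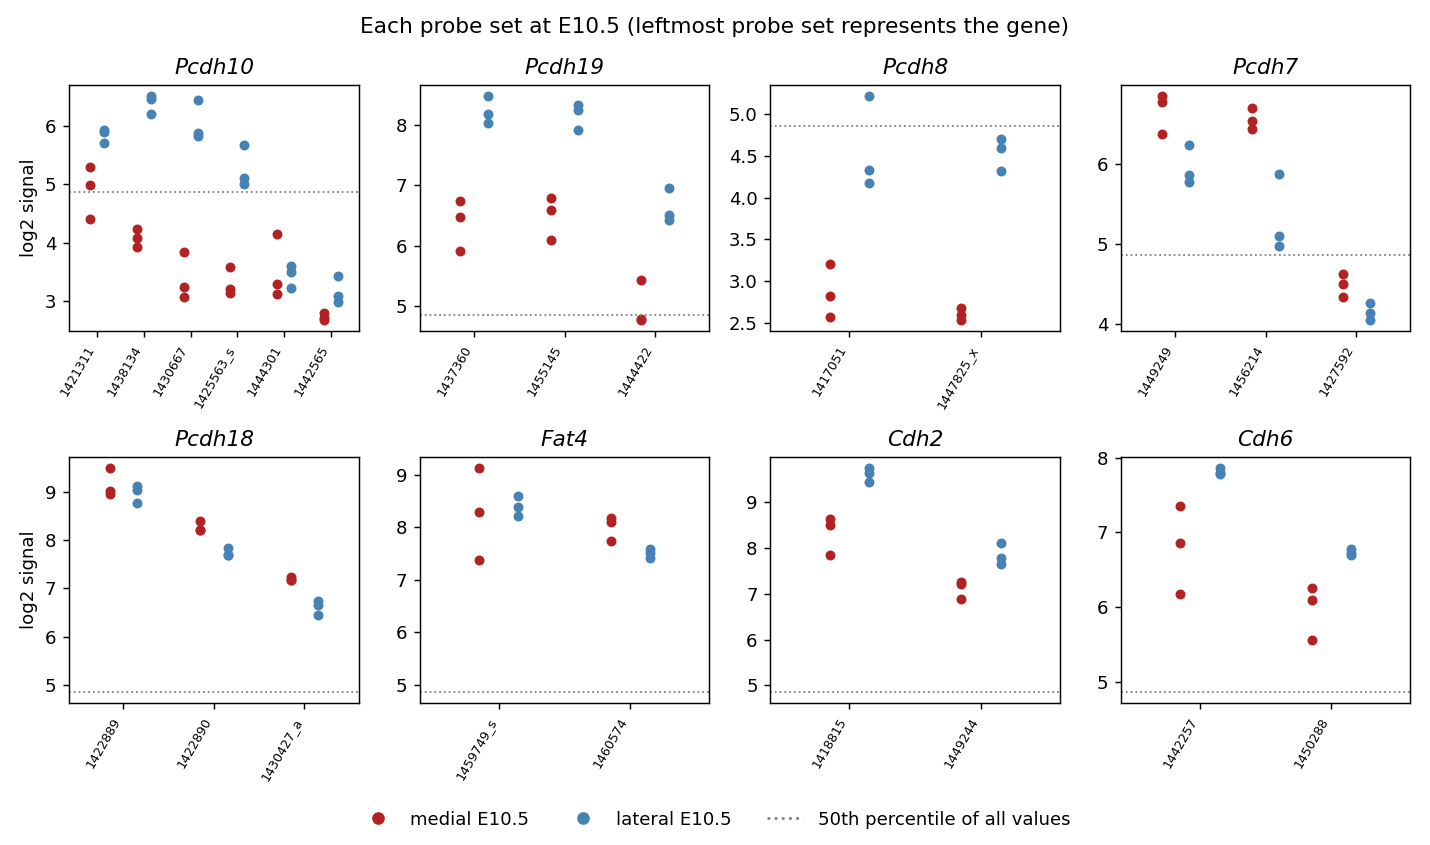
Log2 signal of each probe set (horizontal axis, probe set number) of 8 members on the 3 medial (red) and 3 lateral (blue) E10.5 arrays; every point is an array and the dotted line is the 50th percentile, 4.86. All 3 Pcdh19 probe sets and 4 of the 6 Pcdh10 probe sets separate the regions with lateral tissue higher and at or above the line, while for Fat4 the medial points span the lateral ones in 1 probe set and lie above them in the other.

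The 3 called members were 13.6% of the 22 tested, beside 4.63% of all tested genes in either direction and 1.8% called as lower. The arrays of the regions did not overlap for 10 of the 22 tested members (45.5%), beside 25% of all tested genes. At an unadjusted p under 0.05, limma counted 2 members as higher and 7 as lower, beside 16.1% of all tested genes in either direction. The median log2 difference was -0.16 over tested members and -0.01 over all tested genes. The other 17 members were left out for low signal, so these shares describe 22 genes. All tested members but Cdh26 reached 4.86 on at least 1 array of each replicated group.

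The call for Pcdh19 held without any 1 array (adjusted p between 0.00402 and 0.0129). The calls for Cdh2 and Pcdh10 did not: without lateral E10.5 replicate 1, 2 or 3, Pcdh19 was the only member called. Cdh2 then had adjusted p between 0.0770 and 0.109, and it was also lost without medial replicate 1 (0.0612) or medial replicate 3 (0.0542). Pcdh10 had limma adjusted p between 0.0735 and 0.143 without a lateral array and 0.0818 without medial replicate 2. The Pcdh10 call was also lost where the fit held only the medial and lateral E10.5 arrays. With the groups of arrays alike in spiked-in controls as a block, 7 members were called: the same 3 and Cdh6 and Fat3 as lower, and Pcdh7 and Fat1 as higher (limma adjusted p between 0.000259 and 0.0499), beside 1254 of all tested genes.

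Pcdh8, a delta protocadherin known from paraxial mesoderm, was not tested because its signal was dim, but its arrays separated as well. It gave 3.21, 2.82 and 2.57 on the medial arrays and 5.22, 4.18 and 4.33 on the lateral arrays. The medial values were all lower, and only lateral replicate 1 exceeded 4.86. With no filter on dim genes the log2 difference was -1.71 ± 0.26 (SE; limma adjusted p = 0.00636 over 18194 genes, of which 2.75% were called). Its second probe set differed by -1.93. Since the mean of both regions lay under 4.86, the size of this difference is uncertain.

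Pcdh7 and Pcdh18, also delta protocadherins, had larger medial means in all 3 of their probe sets, and 1 probe set of each passed the test. The representative Pcdh7 probe set gave 6.37, 6.84 and 6.76 in medial and 6.23, 5.77 and 5.86 in lateral tissue, a log2 difference of 0.70 ± 0.22 that did not pass (limma adjusted p = 0.149). Its second probe set, with 6.53, 6.69 and 6.43 against 5.87, 5.10 and 4.97, was higher in medial tissue by 1.24 (limma adjusted p = 0.0187 over probe sets, of which 2.96% were called). For Pcdh18 the representative probe set differed by 0.18 (limma adjusted p = 0.646), while a second was higher by 0.53 (limma adjusted p = 0.0477 over probe sets) and another differed by 0.58 (0.0704). Reading each probe set on its own, 5 members had at least 1 called probe set at E10.5: Pcdh7 and Pcdh18 as higher, and Pcdh19, Pcdh10 and Cdh2 as lower. This reading was chosen after the values were seen. The 2.96% is a share of probe sets, not of genes with at least 1 called probe set. It is therefore not a like background for these 5 members.

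Cdh6, a type II cadherin of early neural crest, gave 6.17, 6.85 and 7.35 in medial and 7.80, 7.86 and 7.78 in lateral tissue. The lateral arrays lay within 0.1 unit of each other and above every medial array, but the medial spread was wide and the log2 difference of -1.02 ± 0.26 did not pass (SE; limma adjusted p = 0.0645). It passed in 8 of 17 alternative fits, among them the fit without medial replicate 3 (adjusted p = 0.0123). Cdh11, the other type II member tested, gave 10.52, 11.03 and 11.10 in medial and 11.17, 11.16 and 11.22 in lateral tissue (difference -0.30, 95% interval -0.69 to 0.09).

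Among the type I cadherins not called, Cdh15 differed by -0.41 ± 0.13 (SE; limma adjusted p = 0.136), Cdh4 (R-cadherin) by 0.29 and Cdh3 by 0.06 (95% interval -0.39 to 0.50). The medial and lateral arrays of Cdh15 did not overlap, at 5.38, 5.32 and 5.17 against 5.63, 5.71 and 5.76. Cdh13, the cadherin anchored by a lipid tail without a cytoplasmic part, differed by -0.41 (limma adjusted p = 0.429), and Cdh26 by 0.37 with both means under 4.86.

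None of the 5 Fat and Dachsous genes was called at E10.5 by limma, and 2 had an unadjusted p under 0.05. Fat3 gave 5.50, 6.10 and 6.43 in medial and 6.62, 6.69 and 7.01 in lateral tissue, a log2 difference of -0.76 ± 0.22 (SE; limma adjusted p = 0.111). Fat1 gave 10.82, 11.27 and 11.32 against 10.62, 10.67 and 10.72, a difference of 0.46 ± 0.20 (SE; limma adjusted p = 0.290). In neither gene did the regions overlap, and the order of the regions was opposite. Fat4 varied most among medial arrays, at 7.37, 8.30 and 9.13, with the lowest value on the medial array of low deposited signal; its interval ran from -1.13 to 0.86, and its other probe set differed by 0.50 in the opposite direction to the representative -0.13. Dchs1, the ligand of Fat4, was 8.35 in medial and 8.36 in lateral tissue (95% interval of the difference -0.46 to 0.42). Fat2 differed by 0.14. Celsr1 and Celsr2, the planar polarity cadherins with a receptor-like membrane part, differed by -0.18 and -0.22, with intervals from -0.61 to 0.24 and from -0.65 to 0.22.

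**Figure D3:**
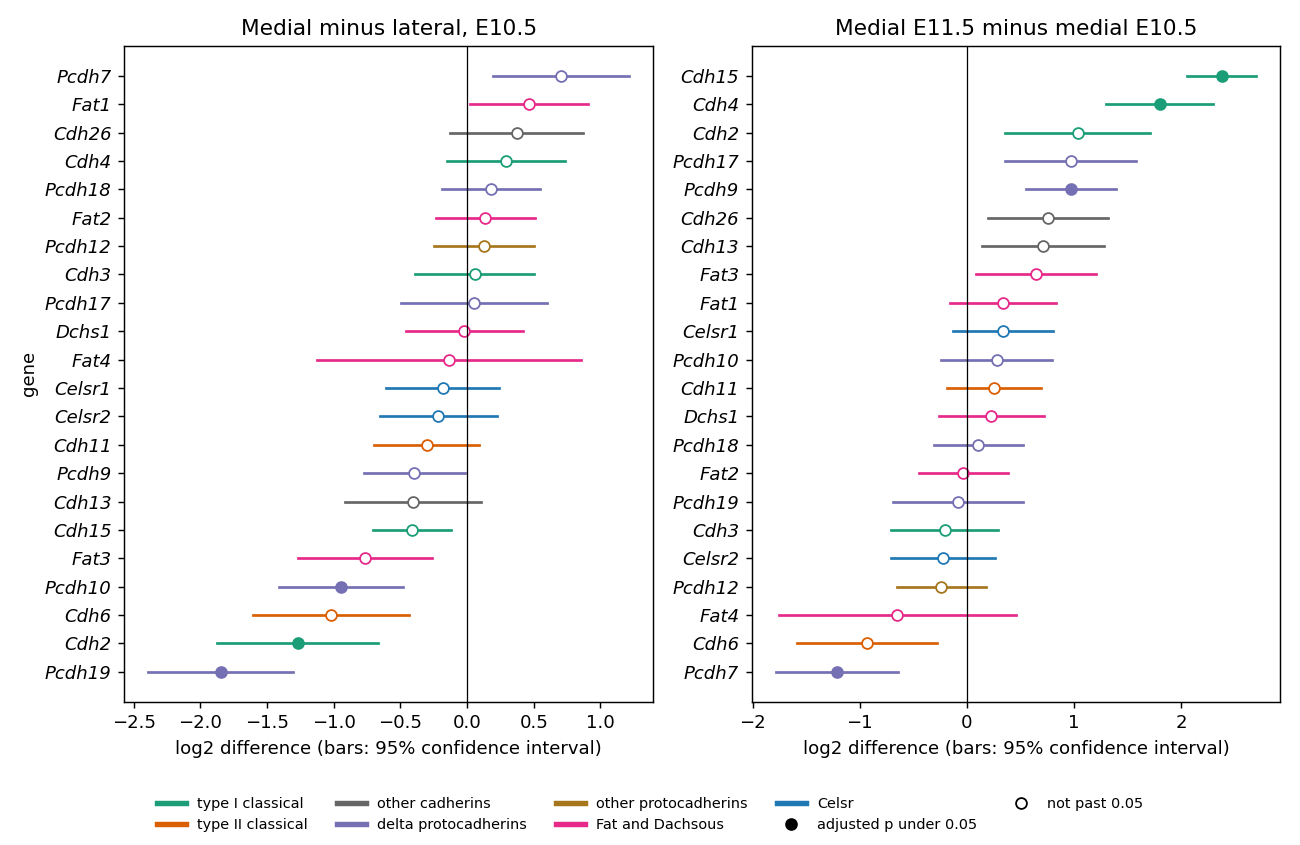
Log2 differences of the 22 tested members (horizontal axis) for medial minus lateral tissue at E10.5 (left) and medial E11.5 minus medial E10.5 (right), with 95% confidence intervals from limma. Filled points passed an adjusted p under 0.05: Pcdh19, Cdh2 and Pcdh10 on the left, and Cdh15, Cdh4, Pcdh9 and Pcdh7 on the right; both panels share the medial E10.5 arrays.

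Markers of other tissues moved with the same comparison, in which 2.82% of all tested genes were called as higher and 1.8% as lower. Of 16 epithelial markers 9 were called as higher in medial tissue and none as lower, and their summed signal was 11.88 to 12.03 in medial and 11.15 to 11.22 in lateral tissue (log2 of the sum). Of 12 endothelial markers 3 were called as higher, and of 13 tested muscle markers 1 was higher and 2 lower, with sums of 8.57 to 8.78 in medial and 8.89 to 9.28 in lateral tissue. Of 3 tested glial markers 1 was called as lower in medial tissue, of 6 neuronal markers 2 were higher, and of 10 mesenchymal markers 2 were higher and 2 lower. The part of these cell types in the differences of Pcdh19, Pcdh10 and Cdh2 was not tested.

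At E9.7 each region had 1 array, so no test was possible, and a gene was counted where the regions were at least 2-fold apart. Of the 20 members that reached 4.86, Pcdh7 was counted as higher in medial tissue (7.12 against 5.98) and Pcdh19 as lower (7.11 against 8.69). The background was 1.76% of 11252 genes, 1.09% counted as higher and 0.667% as lower. All 3 Pcdh19 probe sets were smaller in medial tissue, by -1.58, -1.65 and -1.27 log2 units, and all 3 Pcdh7 probe sets were larger, by 1.14, 0.86 and 0.46. Pcdh8, which did not reach the level, gave 2.99 against 4.35. Fat3 gave 5.15 against 6.15 and Cdh2 gave 8.01 against 8.73, while the Pcdh10 probe sets were within 0.42 of each other across regions. At both stages, then, the medial arrays held less Pcdh19, Pcdh8, Cdh2 and Fat3 signal than the lateral arrays. The larger Pcdh10 contrast was seen at E10.5, and its change with stage was not tested.

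From E9.7 to E10.5 the signal of Fat4, the partner of Dchs1 across cell borders, was larger on every E10.5 array of both regions. In lateral tissue it went from 6.24 to 8.59, 8.22 and 8.38, and in medial tissue from 6.51 to 7.37, 8.30 and 9.13. The lateral difference of 2.16 put every E10.5 array more than 2-fold above the E9.7 array, while in medial tissue the mean difference was 1.76 and medial replicate 1 was 0.86 above it. The second Fat4 probe set went from 6.10 to 7.58, 7.50 and 7.41 in lateral and from 6.24 to 7.73, 8.17 and 8.09 in medial tissue.

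In lateral tissue 3 of 22 members that reached 4.86 were counted as higher at E10.5: Fat4, Pcdh18 (7.67 to a mean of 8.97) and Cdh6 (6.75 to a mean of 7.81). The other probe sets differed by 0.61 and 0.76 for Pcdh18 and by 0.69 for Cdh6, short of 2-fold. The background was 1.34% of 11805 genes, 0.949% counted as higher and 0.39% as lower. Pcdh10 went from 5.03 to a mean of 5.84, and its second probe set from 3.44 to 6.46, 6.5 and 6.21, beside 3.44 to 4.24, 4.09 and 3.92 in medial tissue. In medial tissue 0 of 23 members were counted, beside 0.977% of 11972 genes in either direction (0.626% as higher and 0.351% as lower); without medial E10.5 replicate 1 the count was 1, Fat4. Cdh6 in medial tissue was 6.73 at E9.7 and 6.79 at E10.5. Celsr1 went from 6.23 to 5.39 in medial and from 6.22 to 5.57 in lateral tissue. With 1 array at E9.7 these differences have no replicate check.

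**Figure D4:**
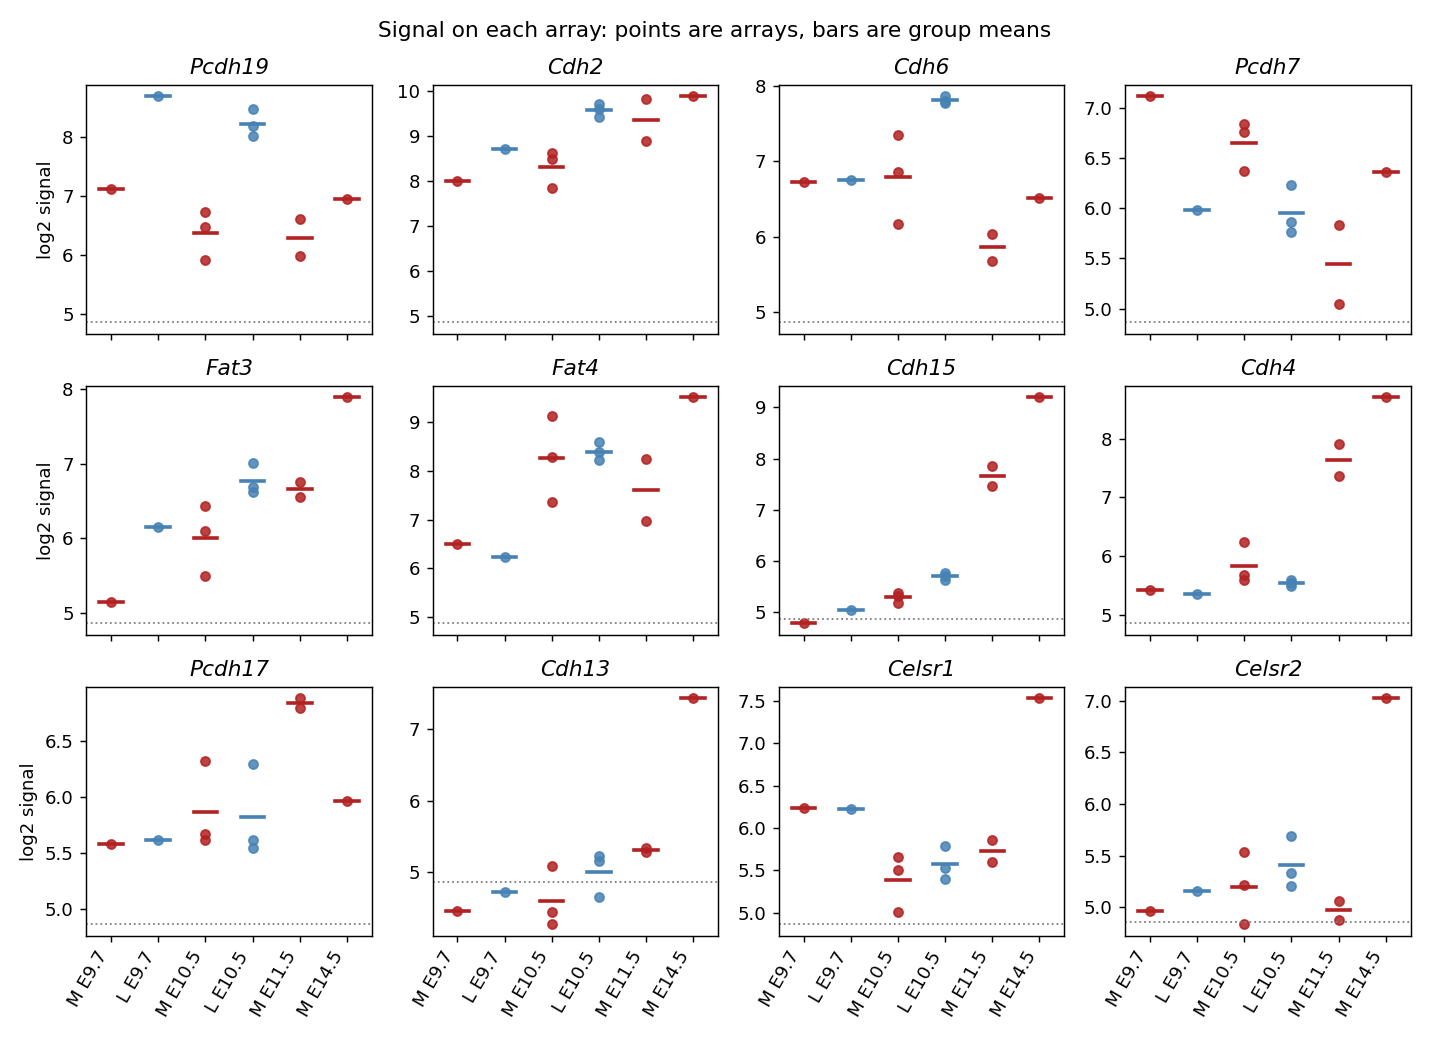
Log2 signal of 12 members in the 6 groups (horizontal axis; M medial in red, L lateral in blue), with a point for each array, a bar for each group mean and a dotted line at 4.86. Pcdh19 lies higher in both lateral groups than in the medial groups of the same stage, Cdh15 and Cdh4 climb from E10.5 through E11.5 to E14.5, and Cdh13, Celsr1 and Celsr2 have their highest value on the E14.5 array.

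The comparison of E11.5 with E10.5 followed medial tissue over a day of growth, and it shares the medial E10.5 arrays with the comparison of regions. Cdh15, Cdh4 and Pcdh9 rose and Pcdh7 fell. These 4 of 22 tested members were 18.2%, beside 6.92% of all tested genes (4.32% as higher and 2.6% as lower). The arrays of the stages did not overlap for 10 members (45.5%), beside 28.4% of all tested genes, and the median difference was 0.27 over tested members and 0.00 over all tested genes. At an unadjusted p under 0.05, limma counted 8 members as higher and 2 as lower, beside 18% of all tested genes. With no filter on dim genes 4.23% of 18194 genes were called.

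Cdh15, the cadherin of myoblasts and satellite cells, gave 5.38, 5.32 and 5.17 at E10.5 and 7.47 and 7.86 at E11.5. Both E11.5 arrays were more than 2 units above all E10.5 arrays. The means were 5.29 ± 0.11 (SD, n = 3) and 7.67 ± 0.28 (SD, n = 2), a log2 difference of 2.38 ± 0.14 (SE; limma adjusted p = 2.81e-05) or 5.20-fold. It was 2.55 and 2.09 within the groups of arrays alike in spiked-in controls.

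Cdh4, a type I cadherin of nervous tissue, kidney and forming muscle, gave 6.24, 5.68 and 5.60 at E10.5 and 7.36 and 7.91 at E11.5. The stages did not overlap. The log2 difference was 1.80 ± 0.22 (SE; limma adjusted p = 0.00108), and 2.23 and 1.12 within the groups alike in spiked-in controls. A second probe set rose by 1.86 (limma adjusted p = 0.000381 over probe sets, of which 4.31% were called). The calls for Cdh15 and Cdh4 held without any 1 array.

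Pcdh9, a delta protocadherin best known from the nervous system, gave 5.45, 5.39 and 5.86 at E10.5 and 6.49 and 6.58 at E11.5, a log2 difference of 0.97 ± 0.19 (SE; limma adjusted p = 0.0141). Pcdh7 gave 6.37, 6.84 and 6.76 at E10.5 and 5.05 and 5.84 at E11.5, a difference of -1.21 ± 0.25 (SE; limma adjusted p = 0.0205). The other bright Pcdh7 probe set differed by -0.83 without passing (limma adjusted p = 0.124 over probe sets), and the remaining dim one by 0.03. The other Pcdh9 probe sets were dim at both stages and differed by 0.68 and 0.09. With their representative probe sets neither gene overlapped between stages, and both calls rested on single arrays. The Pcdh7 call was also lost where the fit held only the medial E10.5 and E11.5 arrays. Pcdh9 had adjusted p of 0.0641 without E11.5 replicate 1 and 0.0827 without E11.5 replicate 2. Pcdh7 had adjusted p of 0.0663 without E10.5 replicate 2, 0.0599 without E10.5 replicate 3 and 0.125 without E11.5 replicate 1, the array of low deposited signal. Within the groups alike in spiked-in controls Pcdh9 differed by 1.20 and 1.04 and Pcdh7 by -1.0 and -1.32.

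Of the members that did not pass without a block for array groups, Pcdh17 gave 5.62, 6.32 and 5.67 at E10.5 and 6.88 and 6.80 at E11.5, a difference of 0.97 ± 0.27 (SE; limma adjusted p = 0.0720). Cdh2 differed by 1.03 ± 0.30 (SE; limma adjusted p = 0.0814), with 8.89 and 9.82 at E11.5 above all E10.5 arrays. Cdh6 differed by -0.93 ± 0.29 (SE; limma adjusted p = 0.105), with 5.68 and 6.04 at E11.5 below all of them. Cdh26, Cdh13 and Fat3 differed by 0.76, 0.71 and 0.65 without overlap (limma adjusted p between 0.124 and 0.205). Pcdh19 was 6.38 at E10.5 and 6.29 at E11.5, and its interval ran from -0.69 to 0.52. Fat4 gave 6.98 and 8.25 at E11.5, again with the lower value on the array of low deposited signal. With the groups of arrays alike in spiked-in controls as a block, 12 members were called between stages. The 8 gained were Cdh2, Cdh13, Fat3, Pcdh17, Fat1, Cdh11 and Cdh26 as higher and Cdh6 as lower, with limma adjusted p between 0.000318 (Cdh2) and 0.0330 (Cdh26), beside 2182 of all tested genes called in that fit.

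Muscle markers moved with this comparison: 11 of 13 tested were called as higher and none as lower, and their summed signal went from 8.57 to 8.78 at E10.5 up to 12.47 to 12.78 at E11.5. Over all tested genes 4.32% were called as higher and 2.6% as lower. Of 6 tested neuronal markers 3 were called as higher, of 7 macrophage markers 4, and of 3 glial markers 1. Of 16 epithelial markers 11 were called as lower, and of 10 mesenchymal markers 7 were lower and 1 higher. Of 12 endothelial markers 3 were called as lower, and of 6 tested red cell markers 1. The part of these cell types in the differences of Cdh15, Cdh4, Pcdh9 and Pcdh7 was not tested.

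At E14.5 the single array came from tissue labelled tongue. Of the 25 members that reached 4.86, 8 were at least 2-fold above both E11.5 arrays and 1 was below them. Among those counted, Cdh19 and Pcdh20 reached 4.86 on the E14.5 array alone, and Cdh26 on the E11.5 arrays but not at E14.5. The direction of these members was therefore set by the filter. The background was 14.6% of 12566 genes, 11% counted as higher and 3.63% as lower. Without E11.5 replicate 2 the count past 2-fold went from 9 to 14 members. The median difference was 0.74 over these members and 0.08 over all genes.

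Celsr1 and Celsr2 were 7.54 and 7.03 at E14.5, against 5.60 and 5.86 for Celsr1 and 4.88 and 5.07 for Celsr2 at E11.5. The 2 genes thus differed by 1.81 and 2.05, although the second Celsr2 probe set differed by 0.25. Fat4 was 9.52 against 6.98 and 8.25, with its second probe set 1.88 higher, and Fat3 was 7.89 against 6.56 and 6.75. Cdh13 was 7.44 against 5.28 and 5.34, a difference of 2.13 that its second probe set gave as 2.08.

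Cdh15 went on to 9.20 at E14.5 from 7.47 and 7.86, and Cdh4 to 8.70 from 7.36 and 7.91, which is not 2-fold beyond both arrays. Cdh19, a type II cadherin of Schwann cell precursors, was 5.25 at E14.5 and between 2.82 and 3.74 on the other 10 arrays. Pcdh20 was 5.27 at E14.5 and at most 3.92 elsewhere. Cdh17, an intestinal cadherin, differed by 1.32 but stayed under 4.86. The member counted as lower was Cdh26, at 4.10 against 5.35 and 5.10.

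Probe sets of 5 delta protocadherins (Pcdh7, Pcdh9, Pcdh10, Pcdh18 and Pcdh19) differed in sign between E14.5 and E11.5. Other members had such probe sets too, among them Cdh6, at 0.65 and -0.83, and Pcdh12, at 0.35, 0.05 and -0.61. The representative Pcdh9 probe set was 0.69 lower than at E11.5, while a second was 2.06 higher, at 6.07. For Pcdh18 the representative probe set was 0.74 higher, while another went from 7.34 and 6.95 to 5.31. The representative Pcdh10 probe set differed by -0.90 and 3 others by 1.56, 0.73 and 0.64, all of them near or under 4.86 at E14.5. Pcdh7 differed by 0.92 with its representative and by -0.25 and -0.57 with the others, and Pcdh19 by 0.66 and 0.71 against -0.33. The summed signal of 14 muscle markers was 15.72 at E14.5 and that of 16 epithelial markers 12.86, against 10.97 to 11.01 at E11.5. The summed glial signal was 10.33 against 9.17 to 9.55. The part of muscle, epithelium and glia in these differences was not tested, and stage and dissection cannot be told apart.

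Of 12 tested catenins and membrane anchors, which hold classical cadherins to the cytoskeleton, 1 was called between regions at E10.5 and 0 between E11.5 and E10.5, beside 4.63% and 6.92% of all tested genes. Between stages limma gave an unadjusted p under 0.05 for 1 gene higher and 1 lower. The called gene was Ctnnd2, delta-catenin, which was higher in medial tissue by 1.75 ± 0.16 (SE; limma adjusted p = 0.00042). Its E9.7 arrays gave 6.66 in medial and 5.43 in lateral tissue. At E14.5 it was 8.48, against a mean of 6.40 at E11.5.

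Of 13 tested planar polarity genes outside the cadherin superfamily, 1 was called between regions and 2 between stages, all as higher. Over all tested genes 4.63% and 6.92% were called, 2.82% and 4.32% as higher. Ankrd6 (Diversin) was higher in medial tissue by 1.19 ± 0.18 (SE; limma adjusted p = 0.00567). The ligand Wnt5a differed by 0.89 ± 0.22 and its receptor Ror2 by -0.57 ± 0.15, neither passing (SE; limma adjusted p = 0.0542 and 0.0769). From E10.5 to E11.5 Prickle1 rose by 1.42 ± 0.14 and Prickle2 by 1.06 ± 0.16 (SE; limma adjusted p = 0.000312 and 0.00338). Prickle proteins act on the opposite cell side from Frizzled and Dishevelled. At E14.5 Dvl1, Fzd6 and Wnt5a were past 2-fold, with differences of 1.57, 1.35 and 1.11, beside 11% of 12566 genes counted as higher.

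Of 18 tested genes of the Fat, Dachsous and Hippo pathway, 1 was called as higher and 2 as lower in medial tissue at E10.5. Over all tested genes 2.82% were called as higher and 1.8% as lower. Ccn2, a target of the coactivators Yap1 and Wwtr1, was lower by -2.69 ± 0.29, and Wwtr1 itself (TAZ) by -0.89 ± 0.17 (SE; limma adjusted p = 0.000941 and 0.0159). Lix1 was higher by 0.99 ± 0.10 (SE; limma adjusted p = 0.000936) and fell by 1.95 from E10.5 to E11.5 (limma adjusted p = 2.78e-05). At E9.7 Ccn2 gave 7.24 in medial and 8.71 in lateral tissue, and Lix1 gave 7.94 and 6.78. At E14.5, 3 genes of the list were past 2-fold higher than at E11.5, Ccn2 and Wwtr1 among them. Another 2 were lower, Lix1 among them. Of 12566 genes, 11% were counted as higher and 3.63% as lower.

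Of the 23 clustered protocadherins with a probe set, which give neurons their identity and are not among the members, 6 were tested and none was called between regions or stages. Limma counted 1 and 2 of them as higher at an unadjusted p under 0.05, beside 16.1% and 18% of all tested genes in either direction. At E14.5, 7 of the 10 that reached 4.86 were past 2-fold higher than at E11.5, beside 11% of 12566 genes. A gene dim on both E11.5 arrays entered this count only through the E14.5 array and had to be higher there. The count is therefore no independent sign of a rise. Among them Pcdhb9 was at 6.48 against 3.77 and Pcdhb17 at 7.21 against 5.29. Of 5 tested genes that cut cadherins or their precursors, none was called between regions (1 at an unadjusted p under 0.05 by limma), and Psen2 rose by 0.63 ± 0.15 from E10.5 to E11.5 (SE; limma adjusted p = 0.038). Over all tested genes 4.63% were called between regions and 6.92% between stages.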

How the data were processed

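RNA from 11 pooled samples of mandibular arch was hybridised to Affymetrix arrays of 45101 probe sets. The authors deposited log2 signals made with Affymetrix Expression Console 1.1, per the submitters' processing notes; the summary algorithm is not given in the sources used here, and the base of the logarithm was inferred from the range of the deposited values. Because 2 arrays had far lower deposited medians, the log2 values were quantile normalized over all arrays. Probe sets were named from the platform annotation.

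The fit used limma 3.58.1 under R 4.3.3 and gave each of the 6 groups its own mean (5 residual degrees of freedom) over 11968 genes, and adjusted by the Benjamini-Hochberg method over all of them. Comparisons with a single array on a side have no test: counted genes lay 2-fold or more past all arrays of the opposite group, among genes with at least 1 of these arrays at the 50th percentile. On simulated data with known changes the fit recovered 80.6% (regions) and 64.2% (stages) of 2-fold changes among 11968 genes, with 6 and 8 false calls. Each simulation changed 67 genes by 1.5-fold, 67 by 2-fold and 66 by 4-fold, and the false calls belong to the whole run. Of 1.5-fold changes it recovered 25.4% (regions) and 20.9% (stages). The noise was independent and normal, without groups of arrays or arrays of low signal. These rates therefore need not hold for the arrays measured here.

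Any member could be named; of each partner list the called genes and up to 4 others with the smallest adjusted p, and of marker lists the 3 of highest mean, could be named. Members, lists and tests were chosen with earlier results of these data known. Each of 12 motifs was searched on both strands of the RefSeq promoters, matches allowed to overlap: motif GGGCGG, motif CCAAT, motif TATAAA, motif TAATTA, motif TAATTG, motif CAGCTG, motif CATATG, motif CACCTG, motif CATTCC, motif TTCCGG, motif TGACGTCA and motif CCATNTT. Alternatives changed the scaling, filter, probe set summary, variance model, array weights, samples in the fit, blocks and fold limit, and left out arrays.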

Additional observations from a re-analysis of the deposited data

Results flagged for a closer look

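Among members that reached 4.86 on any E9.7 or E10.5 array, Cdh11 had regions that were ordered in opposite ways at the 2 stages on every array. The medial minus lateral difference was -0.30 log2 units at E10.5, with all 3 medial arrays below all 3 lateral arrays, and 0.08 at E9.7, where each region had 1 array. Within the groups of arrays alike in spiked-in controls the E10.5 difference was -0.14 and -0.10. The second Cdh11 probe set overlapped between regions at E10.5, with 6.40, 6.91 and 6.48 in medial and 7.10, 6.70 and 6.53 in lateral tissue. The difference between the stages was not tested, and the E10.5 difference did not pass the test (limma adjusted p = 0.450). Celsr3, under 4.86 on every array, was ordered in the same way, with 3.99 in medial and 4.31 in lateral tissue at E10.5 and 4.13 and 4.06 at E9.7.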

How the results depend on the processing

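No called member changed direction under any alternative run. Taken as deposited, all genes shifted by -1.02 (regions) and -0.66 (stages) in median log2 difference, 2 and 1 of all genes were called, and 0 members and 0 partner genes were called in either comparison (limma; at an unadjusted p under 0.05, 1 and 0 members). Relative to that shift Pcdh7, at -0.43 between regions as deposited, kept its sign. Centring arrays on their medians moved the median of all genes by 0.11 between regions. Against 3 members called between regions, the mean of probe sets gave 6, array weights 11, the control-probe group as a block 7, dropping both arrays of low signal 6 and each probe set on its own (added after seeing the data) 5. For the mean of probe sets and without both arrays of low signal, no count over all genes stands beside these 6. Those counts therefore say nothing about members in particular. Against 4 called between stages, the control-probe block gave 12. For partner genes, array weights gave 19 and the control-probe block 11 against 5 between regions, and the mean of probe sets gave 2 and the control-probe block 14 against 4 between stages. At E9.7 the count of 2 members became 1 with the mean of probe sets and 6 at a fold of 1.5. From E9.7 to E10.5, the medial count of 0 became 1 with either of these, and the lateral count of 3 became 1 with centred arrays and 8 at a fold of 1.5. At E14.5 the count of 9 became 15 at a fold of 1.5. Leaving out each array in turn gave 1 to 4 members and 4 to 7 partner genes between regions, 3 to 6 and 3 to 4 between stages, 0 to 1 and 3 to 3 members from E9.7 to E10.5 in medial and lateral tissue, and 9 to 14 at E14.5. Over all genes, 554 were called between regions against 358 with centred arrays, 2833 with array weights and 1254 with the control-probe block, and 308 to 528 without 1 array. Between stages 828 were called against 455 with centred arrays, 482 with the groups compared alone and 2182 with the control-probe block.

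The labels do not say that replicate numbers pair the arrays. Deviations of same-numbered arrays correlated at 0.13, -0.29 and 0.48 between regions. Between stages they correlated at 0.59 and 0.39, and there replicates 1 and 2 also share their control-probe group. With the replicate block, 5 members were called between regions and 7 between stages. The count over all genes in that fit is not given here, so these counts say nothing about members in particular. Pools of embryos and the few arrays limit all comparisons, and signals near 4.86 are dim.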
